A study of Mus musculus with 6 samples.

Results

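The clustered protocadherins form 3 neighboring gene clusters, alpha, beta, and gamma, on mouse chromosome 18. The genes described here were all those of the count table whose name begins with *Pcdha*, *Pcdhb*, or *Pcdhg* followed by a letter or digit and that lie on chromosome 18. This gave 58 of 55421 genes, with 14 alpha, 22 beta, and 22 gamma genes, and 2 gene identifiers carry the name *Pcdha11*. No measured value entered the rule, but the family was taken up because the comparison of these same libraries had drawn attention to *Pcdhga9*, so the tests between the groups are given below as a description of these libraries. Myotonic dystrophy type 1 (DM1) is caused by an expanded CTG repeat, and the cells were a DM1 model made from C2C12, a line of mouse myoblasts, which fuse to myotubes when serum is withdrawn. The normal group (CUG5) carried the pcDNA-GFP-(CUG)5 plasmid with 5 repeats and the DM1 group (CUG200) the pcDNA-GFP-(CUG)200 plasmid with 200 repeats, both stably transfected and selected with G418. Total RNA was taken at differentiation day 4, with 3 libraries per group, and the methods do not say whether the replicates came from separate transfections or clones, so the p-values measure the spread between these libraries.

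Protocadherins of the clusters belong to the cadherin superfamily and are adhesion molecules that bind the same protein on a facing cell. Each alpha and gamma gene has its own promoter and a large first exon, which codes for the extracellular, transmembrane, and upper cytoplasmic parts, and this exon is spliced to a set of constant exons shared by the whole cluster. The beta genes lack constant exons and are essentially single-exon genes. In neurons most of these promoters are chosen at random from cell to cell under the control of CTCF and cohesin, while the C-type genes (*Pcdhac1*, *Pcdhac2*, *Pcdhgc3*, *Pcdhgc4*, and *Pcdhgc5*) are regulated differently, and SMCHD1 helps to keep the clusters silent.

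On GRCm38 the clusters lie on the plus strand in the order alpha (chr18:36930184-37187661), beta (chr18:37264938-37524479), and gamma (chr18:37661793-37841873). In the annotation used here, GENCODE M21, the 14 alpha genes share constant exons of 59, 89, and 2712 bases. The gamma genes share exons of 59 and 89 bases in all 22 genes and a last exon, whose form of 1971 bases is annotated in 17 of them. Bases shared with another gene of the cluster made up 37.96% to 54.9% of the exonic bases of an alpha gene and 27.8% to 66.8% of those of a gamma gene, and in some gamma genes, most of all *Pcdhga4* and *Pcdhgb1*, they include bases outside the constant exons. A read from such bases does not tell which alpha or gamma gene it came from, and how such reads were placed among the genes is not given in the sources used here. For that reason the alpha and gamma genes were compared as sums, and the values of single alpha and gamma genes are uncertain.

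The libraries held 80957325, 61707889, and 70436307 counts in the normal group and 79094991, 72024197, and 63529148 counts in the DM1 group, where 1 count stands for 75 aligned bases. The clustered protocadherins took 0.0379%, 0.0354%, and 0.0384% of the counts in the CUG5 libraries and 0.0264%, 0.0275%, and 0.0286% in the CUG200 libraries. All 3 normal shares were above all 3 DM1 shares. Of the 58 genes, 4 had no count in any library (*Pcdha6*, *Pcdhac1*, *Pcdhb1*, and *Pcdhga10*), and 21 never rose above 30 counts in a library. A gene with 0 counts may have had up to 3 fragments, or 12 counts at the 4 counts that were the commonest low amount, which is worth from 0.148 to 0.194 CPM (counts scaled to the total of the library), and this limit covers counting error only.

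Of the 3 cluster sums the gamma sum passed the test and was lower in the DM1 group. The clusters were compared with each other only through their shares of TPM or counts, by a test that cannot go below p = 0.1 (exact permutation test). The 22 gamma genes together held 225, 195, and 239 CPM, with library sizes scaled by the TMM method, in the CUG5 libraries and 154, 149, and 127 CPM in the CUG200 libraries. The lowest CUG5 library was above the highest CUG200 library. The means were 220 ± 22.6 CPM and 143 ± 14.5 CPM (SD, n = 3 each), a ratio of 0.652. The log2 fold change was -0.62 (standard error, SE, 0.110, adjusted p = 0.00899 by the quasi-likelihood test of edgeR, with p-values adjusted by Benjamini-Hochberg over all 18988 features tested). In the same fit 8.76% of all features were lower at an adjusted p-value under 0.05, and 19.3% were lower without overlap of the groups. With each library left out in turn the log2 fold change of the gamma sum ranged from -0.70 to -0.54 and its adjusted p-value from 0.00936 to 0.0497. In such bulk samples fewer cells that express a gene and less RNA per cell cannot be told apart.

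The beta and alpha sums also had means below those of the normal group but did not pass the test. The 22 beta genes together held 139, 159, and 147 CPM in the CUG5 libraries and 126, 128, and 146 CPM in the CUG200 libraries, with means of 148 ± 10.2 and 133 ± 10.8 CPM. CUG200 library 3 lay within the range of the CUG5 libraries. For the beta sum the log2 fold change was -0.15 (SE 0.0934, adjusted p = 0.311 by edgeR). The alpha cluster was barely expressed, at 0.963, 1.25, and 1.32 CPM in the normal group and 0.659, 1.14, and 1.07 CPM in the DM1 group, and the groups overlapped. Its log2 fold change was -0.30 (SE 0.298, adjusted p = 0.552 by edgeR), and the whole alpha sum rested on 49 to 92 counts per library.

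**Figure D1:**
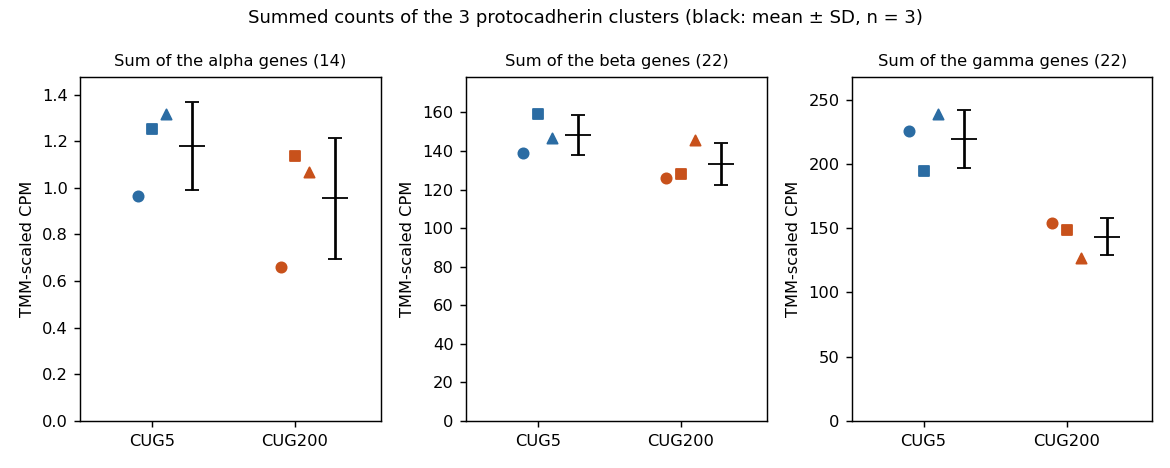
Summed TMM-scaled CPM of the alpha, beta, and gamma protocadherin genes in each library (circles, squares, and triangles are libraries 1, 2, and 3), with the mean ± SD of each group in black. The gamma sums of the normal group, from 195 to 239 CPM, lie above those of the DM1 group, from 127 to 154 CPM, while the alpha and beta sums overlap.

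To compare the clusters within a library, the deposited TPM values, a unit that allows for gene length, were summed. The gamma genes held 62.6%, 56.4%, and 63.2% of the clustered protocadherin TPM in the CUG5 libraries and 56.0%, 54.97%, and 47.9% in the CUG200 libraries. The lowest normal share was just above the highest DM1 share. The mean gamma share was 60.7 ± 3.79% in the normal group and 53.0 ± 4.40% in the DM1 group (exact two-sided permutation test, p = 0.1, the lowest value possible with 3 libraries in each group). The beta share was 39.0 ± 3.76% and 46.7 ± 4.35% (exact two-sided permutation test, p = 0.1). It is nearly all that the gamma share leaves, so its test is not a separate one. The beta sum itself had a lower mean in the DM1 group. The alpha share was 0.271 ± 0.0397% and 0.306 ± 0.0906% (exact two-sided permutation test, p = 0.6). On deposited counts in place of TPM the gamma shares overlapped, with p = 0.2 by the same exact permutation test.

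The beta genes, which were taken one by one, formed a low and a high group along the chromosome. The 13 genes nearest the alpha cluster, *Pcdhb1* to *Pcdhb13*, had mean levels over all libraries from 0 to 1.21 TPM, with 0 to 290 counts in a library. The 9 genes nearest the gamma cluster, *Pcdhb14* to *Pcdhb22*, had mean levels from 2.19 to 10.7 TPM, with 56 to 2612 counts. The lowest of these means is that of *Pcdhb21*, which had 6.30 and 5.29 TPM in 2 libraries and 0.262 to 0.4999 TPM in the other 4, below *Pcdhb12* of the low group. The division between *Pcdhb13* and *Pcdhb14* was drawn after the levels were seen and is a description. The high group held from 88.996% to 92.8% of the beta TPM in every library. Across the 22 genes the order on the chromosome and the mean TPM had a Spearman's rho of 0.888 in the normal group and 0.884 in the DM1 group, and the mean TPM of both groups had a rho of 0.988. These genes share the libraries, differ in length, and are not independent replicates.

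**Figure D2:**
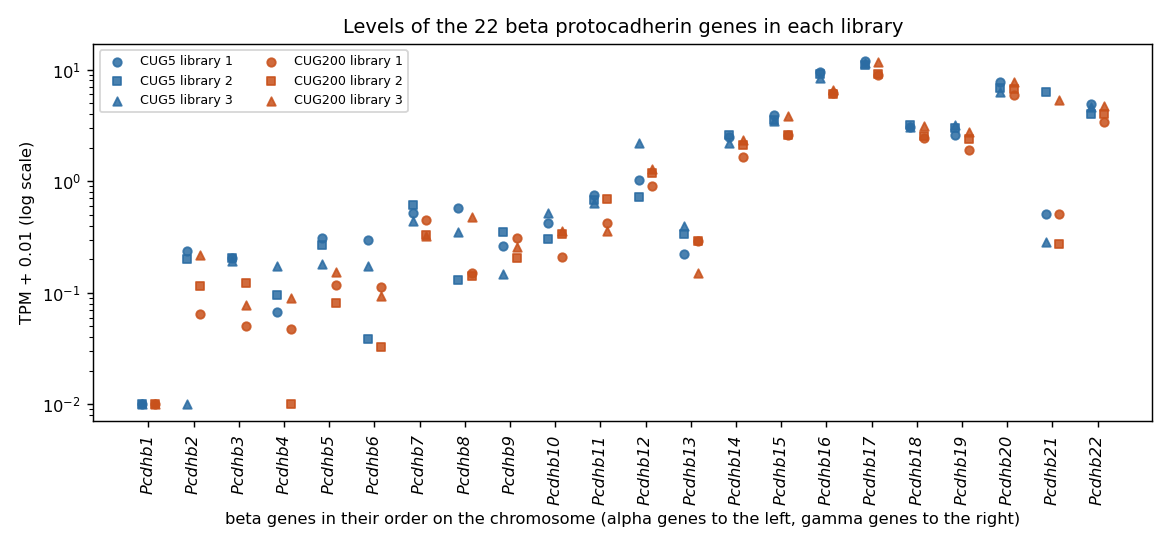
TPM of each of the 22 beta protocadherin genes in each library, on a log axis after adding 0.01, with the genes in chromosome order. *Pcdhb1* to *Pcdhb13* lie at mean levels up to 1.21 TPM and *Pcdhb14* to *Pcdhb22* from 2.19 TPM upward, and *Pcdhb21* is high only in CUG5 library 2 and CUG200 library 3.

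*Pcdhb17* (chr18:37484795-37489454) was the highest beta gene in both groups, at 11.9, 10.9, and 11.5 TPM in the CUG5 libraries and 8.90, 9.16, and 11.6 TPM in the CUG200 libraries. *Pcdhb16* followed in the normal group at 8.98 ± 0.486 TPM and *Pcdhb20* at 6.93 ± 0.664 TPM. In the DM1 group this order was turned, with *Pcdhb20* at 6.83 ± 0.928 TPM and *Pcdhb16* at 6.27 ± 0.251 TPM, whose libraries overlapped. Then came, in the normal group, *Pcdhb22* at 4.51 ± 0.458, *Pcdhb15* at 3.64 ± 0.266, *Pcdhb18* at 3.08 ± 0.0729, *Pcdhb19* at 2.91 ± 0.288, and *Pcdhb14* at 2.40 ± 0.206 TPM. Of these neighbors in the order only *Pcdhb18* and *Pcdhb19* overlapped between libraries. Of all 21 neighboring pairs in the normal order 8 were separate and 13 overlapped, and below *Pcdhb12* only *Pcdhb11* against *Pcdhb7* and *Pcdhb4* against the undetected *Pcdhb1* were separate.

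Within the low group *Pcdhb12* was the highest at 1.31 ± 0.786 TPM in the normal group and 1.11 ± 0.195 TPM in the DM1 group. Its 3 CUG5 libraries differed widely, at 1.02, 0.706, and 2.20 TPM. *Pcdhb11* had 0.681 ± 0.0577 and 0.481 ± 0.181 TPM, and *Pcdhb7* had 0.515 ± 0.0867 and 0.359 ± 0.0723 TPM. The other low genes lay at or below a mean of 0.405 TPM in either group, and 3 of the beta genes never rose above 30 counts in a library.

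*Pcdhb16* (chr18:37477814-37483038) was the 1 beta gene that passed the test between the groups. It had 2316, 1769, and 1915 counts in the CUG5 libraries and 1712, 1496, and 1323 in the CUG200 libraries, that is 27.5, 28.8, and 27.4 CPM against 23.02, 21.002, and 19.9 CPM. The groups did not overlap on the CPM scale. Its log2 fold change was -0.39 (SE 0.0946, adjusted p = 0.0264 by edgeR). The call was lost without CUG5 library 1, 2, or 3 and without CUG200 library 2, with adjusted p-values between 0.0229 and 0.0978 over the 6 fits, and limma-trend on log2(TPM + 1) gave 0.0689.

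Of the 22 beta genes 21 passed the filter on low counts, all but *Pcdhb1*, and 1 of them was lower and 0 higher at an adjusted p-value under 0.05 (8.76% and 7.16% of all features). DESeq2 also called 1 lower and 0 higher (11.7% and 10.5% of all features), and at an unadjusted p-value under 0.05 edgeR counted 3 lower and 0 higher (16% and 14.7%). None passed an absolute log2 fold change over 1 as well, against 2.18% of all features. The log2 fold change was below 0 for 18 of the 21 genes, with a median of -0.21, and was below 0 for 48.6% of all features, with a median of 0.01. In 3 genes the CUG200 libraries were lower without overlap (19.3% of all features), and in 0 genes were they higher (17.9%). These were *Pcdhb16* and the low genes *Pcdhb3* and *Pcdhb5*.

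*Pcdhb3* (chr18:37300799-37304585) had 35, 28, and 30 counts in the CUG5 libraries and 9, 20, and 11 in the CUG200 libraries. It had a log2 fold change of -1.19 (SE 0.498, adjusted p = 0.144 by edgeR). *Pcdhb5* (chr18:37320381-37323915) had 50, 34, and 27 counts against 20, 12, and 20, and a log2 fold change of -1.05 (SE 0.446, adjusted p = 0.148 by edgeR). Both genes were thus separate between the groups at a level of 9 to 50 counts, and neither passed the test. *Pcdhb4*, with 10, 13, and 27 counts against 8, 0, and 12, had the lowest fitted log2 fold change of the beta genes, -1.30 (SE 1.01, adjusted p = 0.433 by edgeR), and its groups overlapped.

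None of the other highly expressed beta genes passed the test. *Pcdhb17* had 31.1, 30.99, and 33.2 CPM in the CUG5 libraries and 29.4, 28.4, and 31.6 CPM in the CUG200 libraries, with a log2 fold change of -0.09 (SE 0.0875). *Pcdhb20* had 15.3, 14.7, and 14.04 CPM against 15.1, 15.9, and 16.2 CPM, with a log2 fold change of 0.10 (SE 0.1004). The log2 fold changes of *Pcdhb14*, *Pcdhb15*, *Pcdhb18*, *Pcdhb19*, and *Pcdhb22* were -0.14, -0.17, -0.07, -0.21, and -0.04, and the groups overlapped in each. Among the low genes that are left, *Pcdhb6*, *Pcdhb7*, *Pcdhb10*, *Pcdhb11*, *Pcdhb12*, *Pcdhb13*, and *Pcdhb2* had values from -0.70 to -0.08, and *Pcdhb8* and *Pcdhb9* had 0.06 and 0.16. Their adjusted p-values by edgeR were between 0.468 and 0.972, with SEs from 0.298 to 1.04.

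**Figure D3:**
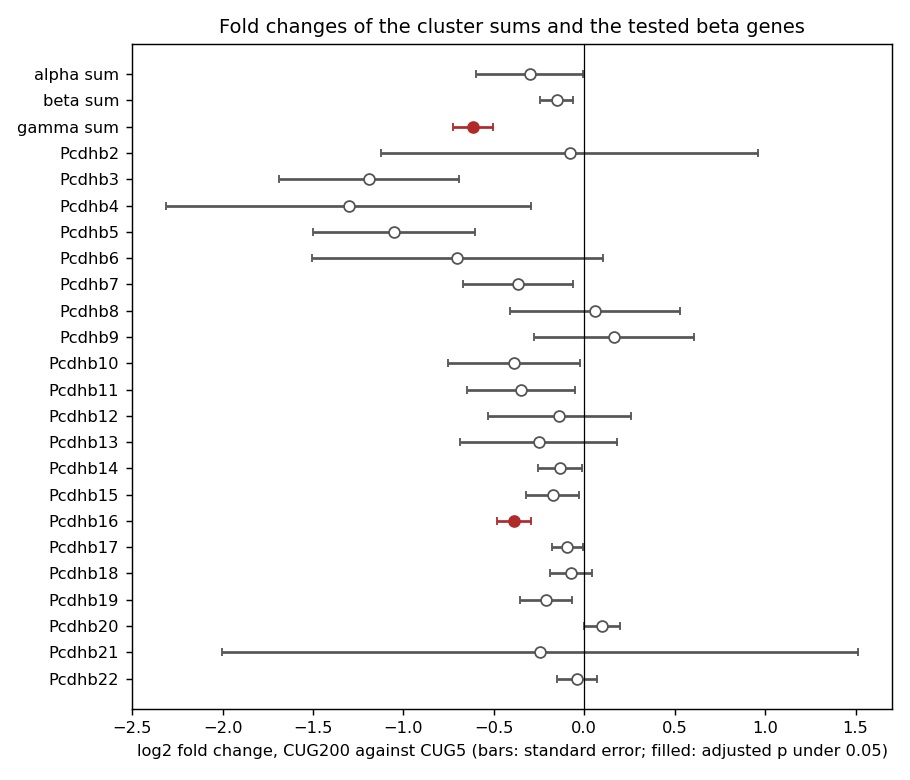
Log2 fold change of the DM1 against the normal group for the 3 cluster sums and the 21 tested beta genes, with the standard error as a bar and filled symbols for an adjusted p-value under 0.05. The gamma sum at -0.62 and *Pcdhb16* at -0.39 are filled, and 18 of the 21 beta genes lie left of 0.

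*Pcdhb21* (chr18:37513621-37518325) stood apart from its neighbors because its level varied far more between replicates than between groups. It had 111, 1108, and 56 counts in the CUG5 libraries and 124, 59, and 963 counts in the CUG200 libraries. CUG5 library 2 and CUG200 library 3 were each high, and the other 4 libraries were low. The log2 fold change was -0.24 with an SE of 1.76 (adjusted p = 0.95 by edgeR), and it ranged from -2.42 to 2.40 when 1 library was left out. The last bases of *Pcdhb21* overlap the start of *Pcdhb22* (chr18:37517871-37524479) on the same strand. Of the 75-base stretches of *Pcdhb21* 8.96%, and of those of *Pcdhb22* 5.99%, occur in another gene of the 3 clusters. For the other 20 beta genes this was 0% to 4.05%. *Pcdhb22* itself had 16.1 CPM in CUG5 library 2 and 18.3 CPM in CUG200 library 3, within the 15.95 to 19.1 CPM of the other 4 libraries.

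Among the gamma genes the deposited counts were concentrated in *Pcdhgc3* and, in 4 of the 6 libraries, in a further gene, which was not the same one in all 4. *Pcdhgc3* (chr18:37806364-37841873), the C-type gene known in neurons for its part in dendrite branching, had 8966, 10501, and 7368 counts in the CUG5 libraries and 4965, 4289, and 6916 in the CUG200 libraries. In CUG5 library 2 and CUG200 library 3 it held 87.8% and 82.0% of the gamma counts. In the other 4 libraries it held between 40.4% and 47.3%. The pair of libraries with most of the gamma counts in *Pcdhgc3* was the pair with the high *Pcdhb21*.

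The further gene was *Pcdhgb1* (chr18:37680233-37841870) in CUG5 library 1, with 7655 counts or 40.4% of the gamma counts, beside 1263 counts of *Pcdhga3*. It was *Pcdhgb8* (chr18:37761801-37841870) in CUG5 library 3, with 8372 counts, more than *Pcdhgc3* itself. In CUG200 libraries 1 and 2 it was *Pcdhga9* (chr18:37736936-37841870), with 4339 and 5168 counts. Each of these genes was low where it was not the further gene: *Pcdhgb8* had 3 to 32 counts in the other 5 libraries, *Pcdhga9* had 28 to 142 in the other 4, and *Pcdhga3* had 21 to 35 in the other 5. *Pcdhgb1* had 49 to 83 counts in 4 libraries and 731 in CUG200 library 1.

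**Figure D4:**
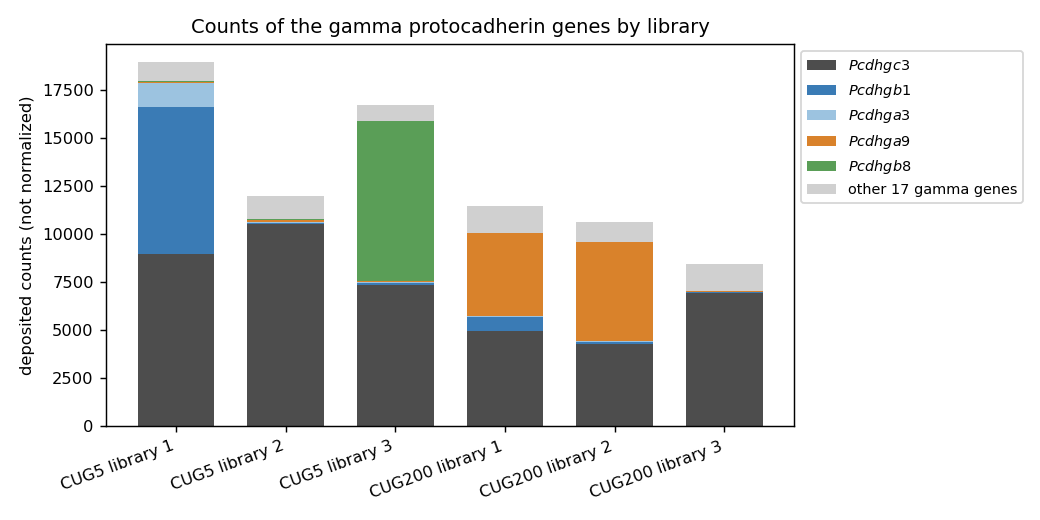
Deposited counts, not normalized, of the gamma genes stacked by gene for each library. *Pcdhgc3* holds most of the bar in CUG5 library 2 and CUG200 library 3, and *Pcdhgb1*, *Pcdhgb8*, or *Pcdhga9* holds a second large part in the other 4 libraries.

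Tested one by one, these genes had large fold changes with large errors. The log2 fold change of *Pcdhga9* was 5.15 (SE 1.93, adjusted p = 0.167 by edgeR), although CUG200 library 3 had fewer counts than any CUG5 library. Of the 6 fits that left out 1 library it passed only in that without CUG200 library 3 (adjusted p = 0.0149 by edgeR). The adjusted p-values of these fits went up to 0.381. DESeq2 on all 6 libraries gave 0.00534. For *Pcdhgb8* the log2 fold change was -8.12 (SE 3.49, adjusted p = 0.217 by edgeR) and rested on 1 library. It was -1.14 (adjusted p = 0.529) in the fit that moved it most, the one without CUG5 library 3. *Pcdhgb1*, which was named after its values were seen, had a log2 fold change of -2.997 (SE 2.30, adjusted p = 0.469 by edgeR), which ranged from -5.05 to 1.64 with 1 library left out.

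*Pcdhgc3* had 107, 171, and 105 CPM in the CUG5 libraries and 66.8, 60.2, and 104 CPM in the CUG200 libraries. On this scale the groups were separate by a narrow margin, between CUG5 library 3 and CUG200 library 3, but on the deposited TPM they overlapped, with 36.5 TPM in CUG5 library 3 and 38.7 TPM in CUG200 library 3. Its log2 fold change was -0.73 (SE 0.279, adjusted p = 0.137 by edgeR). Without CUG5 library 2 and CUG200 library 3, an alternative chosen after seeing the data, it was -0.74 with an adjusted p-value of 0.0138 by edgeR. In the same fit the gamma sum was -0.62 with 0.0182. The libraries left out had the highest *Pcdhgc3* CPM of their groups, so the choice itself narrowed the spread, and 0.0138 is only a description. In the other 15 of 16 alternatives *Pcdhgc3* did not pass.

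The C-type gene *Pcdhgc5* (chr18:37819513-37841873) went the other way from the gamma sum. It had 349, 247, and 194 counts in the CUG5 libraries and 678, 453, and 502 in the CUG200 libraries, or 4.15, 4.02, and 2.78 CPM against 9.12, 6.36, and 7.55 CPM. The lowest CUG200 library was above the highest CUG5 library. Its log2 fold change was 1.07 (SE 0.204, adjusted p = 0.0111 by edgeR), and its adjusted p-value stayed between 0.0163 and 0.0410 with each library left out. The gene shares the constant exons, so its count is uncertain. *Pcdhgc4*, a C-type gene needed for the survival of neurons, had 64, 114, and 57 counts against 103, 99, and 90 and a log2 fold change of 0.27 (SE 0.360, adjusted p = 0.669 by edgeR).

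Of the 22 gamma genes 17 passed the filter on low counts one by one, of which 1 was higher (*Pcdhgc5*) and 0 were lower, against 7.13% and 8.73% of all 19005 genes in that fit. At an unadjusted p-value under 0.05 there was 1 higher and 1 lower (14.7% and 16% of all genes, 30.7% in either direction), and DESeq2 called 2 higher and 0 lower (10.4% and 11.7%). The fitted log2 fold change was above 0 for 11 of the 17 genes and below 0 for 6, where 48.6% of all genes were below 0. That of the sum of all 22 gamma genes was below 0. Outside of *Pcdhgc3*, *Pcdhgb1*, *Pcdhga3*, *Pcdhga9*, and *Pcdhgb8*, a set chosen after the values were seen, the other 17 gamma genes together held 11.97, 19.3, and 11.3 CPM in the CUG5 libraries and 18.8, 14.4, and 20.9 CPM in the CUG200 libraries. These ranges overlapped. The 5 genes held 213, 176, and 228 CPM against 135, 135, and 106 CPM, with means of 206 and 125 CPM, while the means of the other 17 genes were 14.2 and 18.05 CPM. The set was picked for its counts, so these values are a description.

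The alpha genes were each close to the limit of detection. No alpha gene had counts in all 6 libraries, and only *Pcdha1* and *Pcdhac2* passed the filter. *Pcdhac2*, a C-type gene with promoter and exon next to the alpha constant exons, had 30, 28, and 56 counts in the CUG5 libraries and 0, 20, and 30 in the CUG200 libraries, with a log2 fold change of -1.14 (SE 0.968, adjusted p = 0.482 by edgeR). *Pcdha1*, the first gene of the cluster, had 0, 21, and 0 counts against 13, 57, and 0, with a log2 fold change of 1.57 (SE 1.81, adjusted p = 0.626 by edgeR). *Pcdha9* had 6, 28, and 9 counts against 0, 4, and 0. It did not pass the filter and was not tested, and the other 11 alpha genes had at most 20 counts in any library.

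Genes that lie around and between the clusters were described from a hand-written list of 44 neighbors, of which 38 were tested. Of these 6 were higher and 1 was lower in the DM1 group, against 7.16% and 8.76% of all features, with a median log2 fold change of 0.08. Without CUG5 library 1, 2, or 3 or CUG200 library 2 there were 3, 2, 2, and 3 higher. In those fits 3.23%, 3.36%, 2.77%, and 3.02% of all features were higher. *Taf7*, a transcription factor subunit gene between the beta and gamma clusters, had 5.36 ± 0.798 CPM in the normal group and 6.58 ± 0.945 CPM in the DM1 group and did not pass the test (adjusted p = 0.274 by edgeR). *Diaph1*, a formin gene whose 3′ end lies 1.73 kb beyond the gamma cluster on the opposite strand, had 34.7 ± 1.95 and 45.7 ± 7.15 CPM (log2 fold change 0.40, adjusted p = 0.0583 by edgeR, 0.00746 without CUG200 library 3, and 0.0253 by DESeq2). *Hdac3*, a histone deacetylase gene, had a log2 fold change of 0.13 (adjusted p = 0.249), and *Zmat2*, the listed gene nearest to the alpha cluster, had 0.20 (adjusted p = 0.208). None of these 4 genes passed the test with the filter and counts used throughout. Their values were all above 0, while 48.6% of all features were below 0, and *Hars*, also named whatever its result, had -0.01. *Diaph1* passed the edgeR test with other filters on low counts and with counts divided by 4, at adjusted p-values from 0.0452 to 0.0469, and by limma-trend on log2(TPM + 1) it had 0.244. Among the other neighbors *Sra1* (log2 fold change 0.69), *Tmco6* (0.85), *Hbegf* (0.54), and *Fchsd1* (0.61) were higher and *Spry4* (-1.15) was lower, and of these *Hbegf* lost the call without CUG5 library 2 or 3 and *Fchsd1* without CUG5 library 1, 2, or 3 or CUG200 library 2, with adjusted p-values up to 0.0596 and 0.0766 by edgeR. *Pfdn1* and *Ndufa2*, the other 2 higher genes, which were named after their values were seen, lost the call without the same 4 libraries, with adjusted p-values up to 0.108 and 0.0991.

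**Figure D5:**
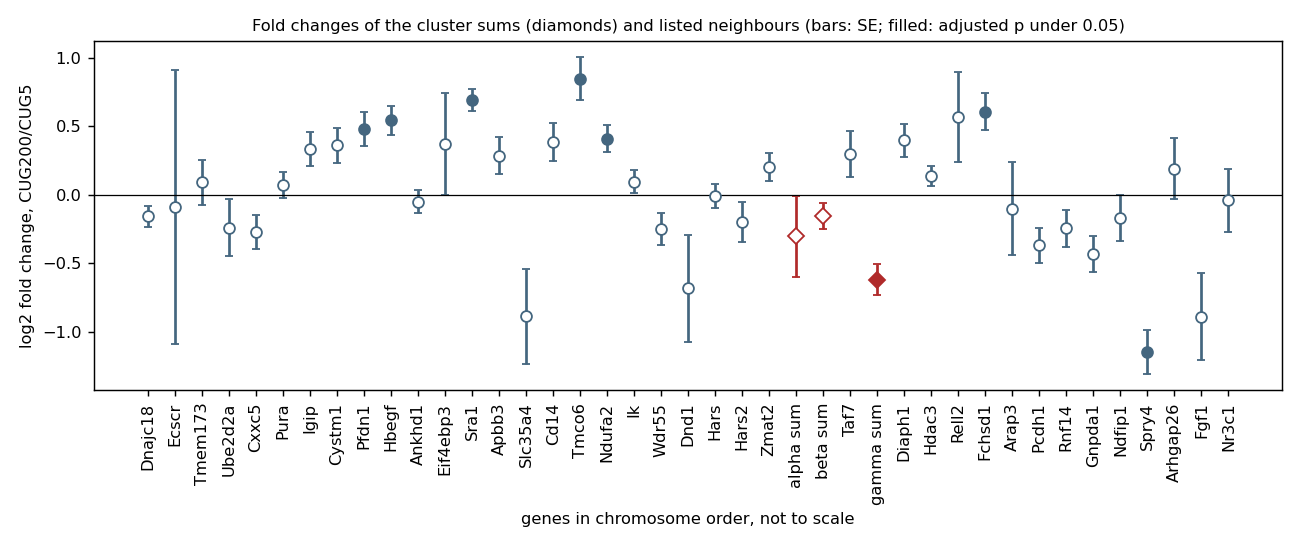
Log2 fold change of the DM1 against the normal group for the cluster sums (diamonds) and the 38 tested neighbors (circles) in chromosome order, not to scale, with the standard error as a bar and filled symbols for an adjusted p-value under 0.05. The gamma sum at -0.62 lies between *Taf7* at 0.30 and *Diaph1* at 0.40.

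Regulators of the clusters were described from a list of 26 measured genes that code for CTCF, cohesin, its loaders and release factors, SMCHD1 and its partner LRIF1, enzymes of DNA and histone methylation and demethylation, and the further regulators *Rest*, *Trim28*, *Wiz*, and *Zfp143*. Of these 4 were lower and 1 was higher in the DM1 group, against 8.76% and 7.16% of all features, with a median log2 fold change of -0.16. *Ctcf*, the factor that binds the promoters and enhancers of the clusters, had 45.7 ± 1.88 CPM in the normal group and 30.4 ± 1.42 CPM in the DM1 group (log2 fold change -0.59, SE 0.0840, adjusted p = 0.00407 by edgeR) and passed the test with each library left out in turn. *Trim28*, a co-repressor gene, had -0.43, *Dnmt1*, the maintenance DNA methyltransferase gene, had -0.39, and *Nipbl*, the cohesin loader gene, had -0.36. *Zfp143*, a zinc finger gene linked to chromatin looping, was higher at 0.47. The cohesin genes *Rad21*, *Smc1a*, *Smc3*, *Stag1*, and *Stag2* and the gene *Smchd1*, named after their values were seen, did not pass the test of edgeR. Their log2 fold changes were from -0.33 to -0.01, with adjusted p-values by edgeR from 0.062 to 0.970 (*Smc3* had 0.0371 by DESeq2). A part of the regulators in the difference of the gamma sum was not tested. The call of *Trim28* was lost without CUG5 library 1 or 3 or CUG200 library 2, those of *Dnmt1* and *Nipbl* without any library but CUG200 library 3, and that of *Zfp143* without CUG5 library 1, with adjusted p-values by edgeR up to 0.0649, 0.158, 0.186, and 0.0508.

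Other members of the cadherin superfamily were counted in the same fit, in which 8.76% of all features were lower and 7.16% higher. Of 21 non-clustered protocadherins and large cadherins 13 were tested, of which 1 was lower (*Fat1*, log2 fold change -0.57, adjusted p up to 0.0626 by edgeR without CUG5 library 1 or 3 or CUG200 library 2) and 1 was higher (*Pcdh20*, 1.47, at 0.724 ± 0.119 and 2.01 ± 0.373 CPM). Of 17 classical cadherins and catenins 10 were tested, of which 7 were lower and 1 was higher, with a median of -0.49. Without CUG5 library 1 or 3 or CUG200 library 2, 5 were lower, and *Cdh2* and *Ctnnd1* lost the call. In those fits 3.46%, 2.46%, and 2.93% of all features were lower. *Cdh15*, the muscle cadherin gene, had 279 ± 11.4 CPM in the normal group and 144 ± 8.29 CPM in the DM1 group (log2 fold change -0.95, adjusted p = 0.00102 by edgeR). *Cdh13* had -0.58, *Ctnnb1*, which codes for beta-catenin, had -0.51, and *Jup*, which codes for plakoglobin, had -0.48, while *Cdh11*, a cadherin gene of mesenchymal cells, was higher at 0.56. By limma-trend on log2(TPM + 1) *Ctnnb1* and *Cdh11* did not pass. *Pcdh20* did not pass by limma-trend on log2(TPM + 1) or log2(TPM + 0.1), with log2 fold changes down to 0.36 and adjusted p-values up to 0.132. Of 24 genes that code for signaling and processing partners of the clustered protocadherins 4 were lower and 0 were higher (8.76% and 7.16% of all features), with a median of -0.20. These were *Ptk2*, the focal adhesion kinase gene (-0.30), *Fyn*, a Src family kinase gene (-0.42), *Cyfip2*, a WAVE complex gene (-1.11), and *Psen2*, a gamma-secretase gene (-0.63), each of which lost the call without CUG5 library 3 (adjusted p = 0.169, 0.173, 0.0513, and 0.141 by edgeR), as did *Ptk2* without any other library but CUG200 library 3, *Fyn* without CUG5 library 1 or 2 or CUG200 library 2, and *Psen2* without CUG5 library 2 or CUG200 library 1 or 2. At an unadjusted p-value under 0.05 the list held 10 genes (30.7% of all features), and DESeq2 called 7 (22.2%).

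The groups differed in markers of differentiation and of other cell types, and their part in the difference of the gamma sum was not tested. Against 8.76% of all features lower and 7.16% higher, 22 of 30 myotube markers were lower and 0 higher in the DM1 group, with summed levels of 23511 to 24980 CPM in the CUG5 libraries and 15541 to 17483 CPM in the CUG200 libraries, and none was at 0 in all libraries. With 1 library left out, 14 to 21 myotube markers were lower and 0 to 1 higher. In those fits 2.46% to 10.8% of all features were lower and 2.77% to 8.53% higher. *Myog* had 321 ± 2.16 and 204 ± 7.89 CPM, *Ckm* had 361 ± 23.6 and 201 ± 7.29 CPM, and *Actn2* (log2 fold change -1.22) and *Myh8* (-2.90) were lower as well. Of 11 tested fibroblast markers 6 were higher and 0 lower, with summed levels of 4225 to 4677 and 5258 to 5845 CPM, and *Tcf21* and *Twist1* were at 0. *Col1a1* (log2 fold change 1.06), *Dpt* (1.08), *Lum* (0.81), and *Dcn* (0.45) were among them, while *Fap*, named after its values were seen, had -1.08 and lay lower without overlap but did not pass the test (adjusted p = 0.188 by edgeR). From 3 to 6 fibroblast markers were higher with 1 library left out, where 2.77% to 8.53% of all features were higher. Of 21 tested genes listed as markers of undifferentiated myoblasts 6 were lower and 1 was higher (*Id2*, 0.41), with summed levels of 2600 to 2682 and 2295 to 2396 CPM. Among the lower ones were *Hey1* (-2.33), *Cdh15*, *Cxcr4* (-0.77), and *Hes1* (-0.67). *Cdh15* was also counted with the classical cadherins above, so these lists share a gene. Of 12 tested neuron and glia markers 2 were lower (*Nefl*, -0.66, and *Nefm*, -0.79) and 1 was higher (*Stmn2*, 0.44), the summed levels overlapped at 451.9 to 459 and 442 to 467 CPM, and the defining markers *Rbfox3*, *Gad1*, *Aqp4*, and *Sox10* were at 0 in all libraries. The calls of *Dcn*, *Stmn2*, *Hes1*, and *Id2* were lost without CUG5 library 2 and without CUG5 library 3, among other fits that left out 1 library, with adjusted p-values by edgeR up to 0.114, 0.0629, 0.0653, and 0.115.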

How the data were processed

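The authors removed adapters and poor reads with trim_galore, used HISAT2 against GRCm38, and quantified genes with StringTie. The read length, tool versions, annotation, and strand setting are not given in the sources used here. The deposited files are 1 table of gene counts without normalization and for each library a table with the coverage (signal), FPKM, and TPM of every gene, which StringTie scales for length and library size. Coverage multiplied by length and divided by 75 gave the count within 1 for 99.5% of 14004 genes with a single transcript, so 1 count is 75 aligned bases, and the commonest low amount was 300 bases, or 4 counts. Coverage served only for this check and FPKM only for the order of the beta genes. Replicates differed by more than sampling noise (chi-square per degree of freedom from 39.5 to 147), and each library is 1 replicate.

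The alpha and gamma rows were each replaced by their sum and the beta genes kept one by one (in a further fit also summed, and in another all genes as deposited). Features were filtered with filterByExpr (minimum count 10), scaled by TMM (factors from 0.940 to 1.05), and compared without covariates by the robust quasi-likelihood test of edgeR, at 0.05 after adjustment over all features by Benjamini-Hochberg. The biological coefficient of variation was 0.218. The SE given with an edgeR fold change was derived from its test, as the absolute log2 fold change divided by the square root of the F statistic. Alternatives were the test of DESeq2, scaling by the size factors of DESeq2 or by library sizes alone, a filter of 1 count in all or of 10 counts in each library, the replicate block, counts divided by 4, limma-trend on TPM with a pseudocount of 1 or 0.1 before log2, each library left out, sums with the other same-strand genes of the span, and, chosen after seeing the data, 2 libraries left out together.

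The members and lists were chosen with earlier results of these data known. Named are all beta genes, the sums, the C-type genes, *Pcdhga9*, the 3 highest alpha and gamma genes by TPM, up to 5 called per direction, up to 4 called per direction of each other list, and the neighbors *Taf7*, *Slc25a2*, *Zmat2*, *Hars*, *Diaph1*, and *Hdac3*. Tests ran in edgeR 4.0.16, limma 3.58.1, and DESeq2 1.42.0 under R 4.3.3, and the permutation tests and plots in scipy 1.17.1, numpy 2.4.6, pandas 2.3.3, and matplotlib 3.10.9 under Python 3.11.15.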

Additional observations from a re-analysis of the deposited data

How the results depend on the processing

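The gamma sum kept its direction and its call in all 17 alternatives (log2 fold change from -0.73 to -0.54), and the alpha and beta sums kept their direction and stayed short of the threshold. The beta and gamma shares kept their direction, as did the alpha share on TPM, while on counts the difference of the alpha share turned from 0.0255 to -0.00213 percentage points without CUG5 replicate 1 and to -0.00663 without CUG200 replicate 2. The exact permutation test of the shares cannot go below 0.1. No higher beta gene was called in any alternative. The call of 1 lower beta gene, *Pcdhb16*, was lost (0 genes) with limma-trend on log2 TPM at pseudocounts of 1 and 0.1, without CUG5 replicate 2 and CUG200 replicate 3 together, and with a log2 fold change over 1, and ranged from 0 to 1 with 1 library left out. The tested beta genes had a median log2 fold change from -0.33 to -0.12 over the alternatives. Limma-trend moved the median of all features from 0.01 to -0.06 with a pseudocount of 1 and to -0.09 with 0.1.

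The counts of lists depended on the setting more often, as did the share of all features called (8.76% lower and 7.16% higher in the fit reported). With limma-trend at either pseudocount, which called 4.32% and 4.49% of all features lower and 2.25% and 2.28% higher, the counts were 2 lower and 0 higher regulators, 0 higher non-clustered protocadherins (and 0 lower with a pseudocount of 1), 0 higher cadherins, 2 higher neighbors, 0 higher undifferentiated myoblast markers, 0 higher neuron and glia markers, and 3 higher fibroblast markers. DESeq2 (11.7% lower and 10.5% higher) gave 2 higher regulators, 2 lower non-clustered protocadherins, 7 lower signaling partners, 3 lower neighbors, and 2 higher neuron and glia markers. Counts divided by 4 (11.4% and 10.1%) gave 2 higher regulators, 2 lower neighbors, and 2 higher neuron and glia markers, a filter of 10 counts in every library (10.6% and 9.26%) 2 lower neighbors and 2 higher neuron and glia markers, and no filter beyond 1 count (5.32% and 4.43%) 2 higher neuron and glia markers. Without CUG5 replicate 2 and CUG200 replicate 3 (6.53% and 5.28%) there were 2 lower non-clustered protocadherins, 1 higher signaling partner, 2 lower neighbors, and 0 higher undifferentiated myoblast markers. With 1 library left out, where 2.46% to 10.8% of all features were lower and 2.77% to 8.53% higher, the ranges were 1 to 5 lower and 0 to 2 higher regulators, 0 to 3 lower non-clustered protocadherins, 5 to 7 lower cadherins, 0 to 7 lower and 0 to 1 higher signaling partners, 1 to 3 lower and 2 to 7 higher neighbors, 14 to 21 lower and 0 to 1 higher myotube markers, 3 to 6 lower and 0 to 3 higher undifferentiated myoblast markers, 0 to 2 higher neuron and glia markers, and 3 to 6 higher fibroblast markers. The cause was not tested.

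Same-numbered libraries of both groups were not paired by the data (correlations of deviations 0.0644, 0.0198, and 0.0225, all under 0.1), and the labels give no shared batch. With the replicate block the gamma sum was -0.62 (adjusted p = 0.0201 by edgeR), and with 7.93% of all features lower and 7% higher the counts were 3 lower non-clustered protocadherins, 2 lower neighbors, and 2 higher neuron and glia markers, where the fit without it had 1 of each.

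Some genes with an adjusted p-value above the threshold changed sign, and of these only *Pcdha1* was called in any alternative, at 8.19 (adjusted p = 0.0456 by edgeR) without CUG5 replicate 2 and CUG200 replicate 3. The CUG5 libraries left in that fit had 0 counts of *Pcdha1*, so 8.19, here and in its range below, is not a measured fold change. The block gave 0.20 for *Pcdhb2*, 0.027 for *Pcdhb12*, and 0.17 for *Pcdhb21*. Limma-trend gave 0.016 for *Pcdhb2* with a pseudocount of 0.1, and with pseudocounts of 1 and 0.1 it gave -0.10 and -0.35 for *Pcdhb8* and -0.022 and -0.026 for *Pcdhb20*. Without CUG5 replicate 2 and CUG200 replicate 3 the values were -0.37 for *Pcdhb8*, 0.093 for *Pcdhb13*, and 0.23 for *Pcdhb21*. *Hars* was at 0.00020 with 10 counts in every library and at 0.0032 with counts divided by 4. With 1 library or this pair left out the ranges were -0.65 to 0.38 for *Pcdhb2*, -0.37 to 0.42 for *Pcdhb8*, -0.080 to 0.56 for *Pcdhb9*, -0.45 to 0.52 for *Pcdhb12*, -0.49 to 0.093 for *Pcdhb13*, -2.42 to 2.40 for *Pcdhb21*, -0.15 to 0.029 for *Pcdhb22*, -0.31 to 8.19 for *Pcdha1*, and -0.051 to 0.052 for *Hars*. The alpha genes and *Pcdhb1* to *Pcdhb13* have few counts, which limits their precision, and how far depth or the spread between libraries sets their errors was not tested. Shared exons limit every single alpha and gamma gene.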

Other observations

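Of the neighbors named whatever their result, *Slc25a2*, which lies between the beta and gamma clusters, did not pass the filter, with 0.0230 ± 0.0302 CPM in the normal group and 0.170 ± 0.134 CPM in the DM1 group, and *Hars*, which lies 147 kb before the alpha cluster, had 78.9 ± 3.05 and 78.6 ± 6.31 CPM (log2 fold change -0.01, adjusted p = 0.974 by edgeR). Genes of other names on the same strand within the alpha span numbered 6, with at most 10 counts in a library, and within the gamma span 6, with at most 108 counts.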
